A study of Mus musculus with 6 samples.

Results

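The insulin-like growth factor (IGF) system is described here by 10 genes of the mouse auditory nerve: the ligands Igf1 and Igf2, the receptors Igf1r and Igf2r, and the binding proteins Igfbp2, Igfbp3, Igfbp4, Igfbp5, Igfbp6 and Igfbp7. They were taken by gene symbol from the 17607 genes of the deposited table, and all 10 were among the 15882 genes tested. RNA sequencing was done on nerves of CBA/CaJ mice, an inbred strain that keeps its hearing late into life, with no other allele or treatment in the labels. One group held 3 young adults aged 2 months and the other 3 old mice aged 2.5 years. Each library is 1 mouse with both of its cochleas pooled, so the replicates are separate animals, and the dissected nerve is a mixture of neurons, glia, vessels, connective tissue and immune cells. In such bulk tissue, fewer cells of a type and less RNA per cell cannot be told apart.

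IGF-1 and IGF-2 are secreted peptides related to insulin. Both activate IGF1R, a tyrosine kinase receptor that signals through insulin receptor substrates to PI3K, AKT and TOR and through RAS to ERK, and thereby promotes growth, survival and protein synthesis. IGF2R, the cation-independent mannose 6-phosphate receptor, has no such kinase: it carries IGF-2 to lysosomes for breakdown and sorts lysosomal enzymes. The classical binding proteins hold the ligands outside the cell and either block them or hand them to the receptor, and proteases such as PAPP-A release the ligand again. IGFBP7 binds IGFs only weakly and is often treated as a related protein. In the cochlea, IGF-1 is known for its part in the survival of hair cells and spiral ganglion neurons, and loss of the gene causes deafness in mice and people.

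Values are normalised read counts, that is, reads divided by 1 size factor per library, from libraries of 34587979 to 40841478 reads. Where values of single libraries are given, they are those of replicates 1, 2 and 3 in that order. A log2 fold change is the mean of old less that of young nerves on the scale of log2(count + 1), with its SE and 95% interval, and a gene is said to have risen or fallen if its Benjamini-Hochberg adjusted p from limma was under 0.05. Among all genes tested 34.6% passed this threshold, 15.9% higher and 18.7% lower in old nerves. Markers of spiral ganglion neurons (15 of 15) and myelinating Schwann cells (12 of 12) were present in all 6 libraries. Log2 fold changes depended on transcript length across the whole table: the median was 0.28 for genes whose longest transcript is under 1500 nt, -0.01 for those from 1500 to under 6000 nt and -0.26 for those of 6000 nt or longer. A second set of values, with smooth trends in length and GC content removed from each library, is therefore given beside the members.

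In old nerves Igf1, Igfbp7 and Igfbp2 were higher and Igf2r was lower, and the other 6 members did not pass the test. This count of 4 of 10 stands beside the 34.6% of all genes, so it is no result about the family as a whole. The median log2 fold change was 0.11 over the 10 members and -0.0008 over all genes tested. Old and young libraries did not overlap in 6 members, 4 higher (Igf1, Igfbp2, Igfbp3, Igfbp7) and 2 lower (Igf2r, Igfbp5), against 51.8% of all genes. The authors' deposited table, from their own comparison, has an FDR under 0.05 for these same 6 members, against 35.5% of its genes. With length and GC trends removed, by the longest transcript of each gene, 2 members passed, Igf1 and Igfbp7, against 22.4% of genes.

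**Figure D1:**
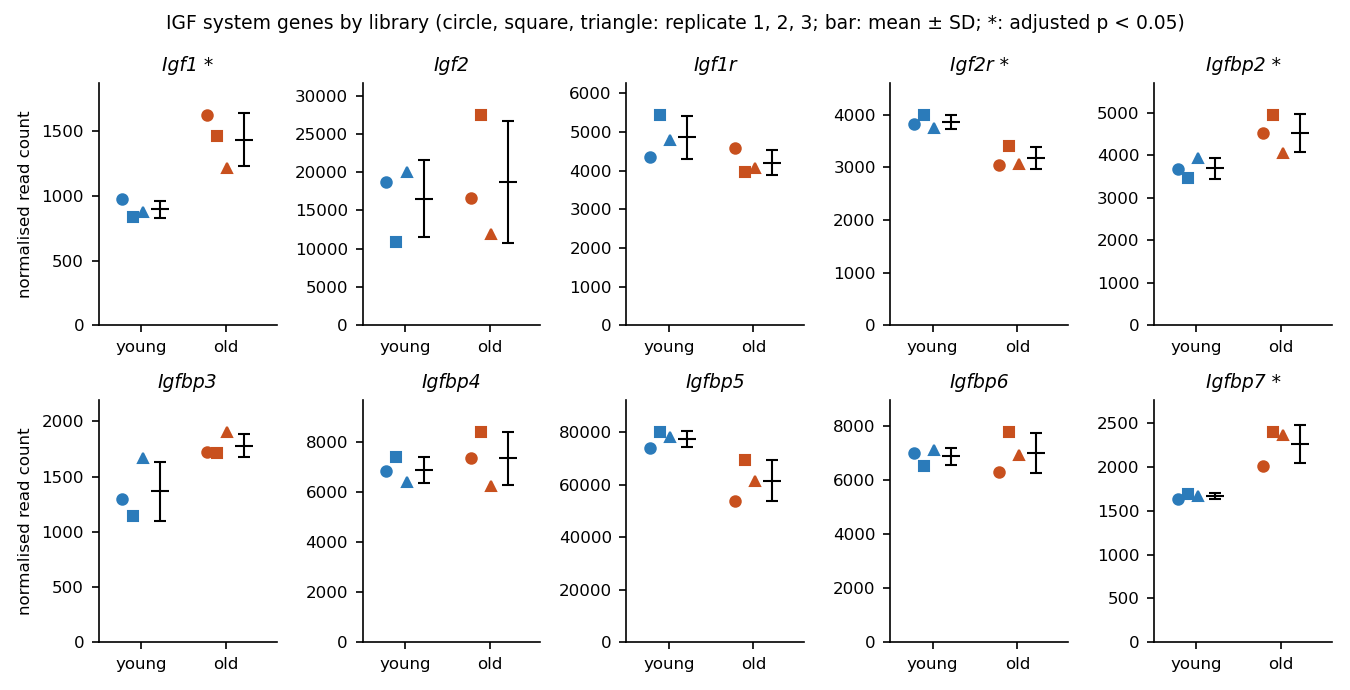
Normalised read count of each of the 10 genes (y axes, starting at 0) in 3 young (blue) and 3 old (orange) libraries; circles, squares and triangles are replicates 1, 2 and 3 of a group, bars are mean ± SD, and an asterisk marks an adjusted p under 0.05. The Igf1 and Igfbp7 groups are far apart relative to their spread, whereas the Igf2 libraries of the 2 ages overlap, with old 2 above all others.

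The stretches around the transcription start sites of the 4 genes that passed, and of Igfbp5, the chromosome neighbour of Igfbp2, are shown to let the regulatory sequence be read beside the values. Each runs from 250 bases before to 50 bases after the RefSeq start in GRCm38.p6, 5′ to 3′ on the gene's own strand. All 10 members had a RefSeq promoter. Capitals mark, on either strand, the GC box GGGCGG, the E-box CACGTG (the core of the element shared by many lysosomal genes), CCAAT and the TATA box TATAAA. No motif of the 4 contains another. The Igf1 window, chr10:87860861-87861160 on the plus strand, starts from a site 2846 bases inside the deposited gene, the others from the deposited 5′ end of the gene.
Igf1: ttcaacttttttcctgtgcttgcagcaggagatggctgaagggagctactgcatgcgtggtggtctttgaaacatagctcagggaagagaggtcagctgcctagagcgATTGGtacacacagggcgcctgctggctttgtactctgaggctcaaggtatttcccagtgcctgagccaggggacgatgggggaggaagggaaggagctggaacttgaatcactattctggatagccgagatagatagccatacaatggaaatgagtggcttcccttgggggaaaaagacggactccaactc
Igf2r: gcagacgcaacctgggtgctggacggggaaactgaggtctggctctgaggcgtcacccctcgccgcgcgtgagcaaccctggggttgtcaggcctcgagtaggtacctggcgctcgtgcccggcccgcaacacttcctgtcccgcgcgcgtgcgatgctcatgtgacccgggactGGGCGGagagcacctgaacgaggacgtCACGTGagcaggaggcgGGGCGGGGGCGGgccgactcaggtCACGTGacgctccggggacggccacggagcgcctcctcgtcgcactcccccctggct
Igfbp7: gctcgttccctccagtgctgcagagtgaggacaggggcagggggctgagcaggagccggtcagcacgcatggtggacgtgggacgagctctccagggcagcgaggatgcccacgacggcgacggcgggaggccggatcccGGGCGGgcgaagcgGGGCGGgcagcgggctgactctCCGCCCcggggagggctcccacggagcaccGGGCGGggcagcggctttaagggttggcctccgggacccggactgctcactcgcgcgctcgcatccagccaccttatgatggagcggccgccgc
Igfbp2: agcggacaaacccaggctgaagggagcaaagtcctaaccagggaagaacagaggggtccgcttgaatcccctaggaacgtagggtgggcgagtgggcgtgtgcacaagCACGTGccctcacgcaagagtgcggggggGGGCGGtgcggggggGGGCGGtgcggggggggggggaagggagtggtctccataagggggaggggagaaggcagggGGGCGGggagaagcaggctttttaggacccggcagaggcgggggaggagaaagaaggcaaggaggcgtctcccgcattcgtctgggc
Igfbp5: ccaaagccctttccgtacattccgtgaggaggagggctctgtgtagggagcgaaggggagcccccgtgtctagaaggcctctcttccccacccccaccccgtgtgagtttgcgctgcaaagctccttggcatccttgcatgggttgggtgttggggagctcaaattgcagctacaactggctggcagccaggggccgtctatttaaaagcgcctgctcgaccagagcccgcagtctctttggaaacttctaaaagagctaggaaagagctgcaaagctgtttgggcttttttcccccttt
The Igf2r window is chr17:12769657-12769956 (minus strand), with 3 GC boxes and 2 E-boxes. The Igfbp7 window is chr5:77407996-77408295 (minus strand), with 4 GC boxes. The Igfbp2 window is chr1:72824230-72824529 (plus strand), with 3 GC boxes and 1 E-box. RefSeq has a further Igfbp2 start 907 bases inside the gene (window chr1:72825137-72825436, not shown) with none of the 4 motifs. Igfbp5, at chr1:72874816-72875115 (minus strand), held none of the 4 motifs, and Igf1 held 1 CCAAT. Of 32851 RefSeq promoters of this length, 35.7% hold GGGCGG, 7.15% CACGTG, 37.4% CCAAT and 13.6% TATAAA. A match is a stretch of letters, not a measured binding site.

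Igf1, the ligand made in the liver for the circulation and locally in many tissues, rose 1.60-fold. It stood at 972, 839 and 874 counts in the young libraries and at 1629, 1461 and 1217 in the old libraries. Every old library lay above every young one, and the old libraries were more spread (207 against 68.8, SD, n = 3). The log2 fold change was 0.67 ± 0.12 (interval 0.39 to 0.96, limma adjusted p = 0.00827). Igf1 passed in all 18 alternative analyses, with log2 fold changes between 0.58 and 0.79, among them 0.73 with length and GC trends removed. Its longest transcript has 7052 nt, and of 2075 genes of 6000 nt or longer 102 rose and 883 fell. The median over its 8 transcripts is 1367.5 nt, and of the 2230 genes whose longest transcript is under 1500 nt 740 rose and 66 fell, so its length class depends on the transcript. The trends were removed by the longest transcript, so the 0.73 and its call rest on 7052 nt. Removal by the median length was not run. The gene lies on the plus strand of chromosome 10 from 87858265 to 87937047 (mm10, as deposited).

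Igf2, the ligand of fetal growth, which is imprinted and in adults is made mainly by the meninges, choroid plexus and vessels, did not pass the test. Its counts were 18751, 10817 and 20070.1 in the young libraries and 16653, 27537 and 11962 in the old libraries. The highest and one of the lowest values both came from old mice, and the groups overlapped. The log2 fold change was 0.14 ± 0.34 with an interval from -0.66 to 0.94 (adjusted p = 0.771). With 3 mice a group the values thus leave room for a fall or a rise within that interval. It turned to -0.18 without old 2 and to -0.14 without young 2, and was 0.42 without old 3 and also 0.42 with length and GC trends removed, none of them past the threshold. Igf2 varied most among the members, with coefficients of variation of 30.3% in young and 42.7% in old nerves and a highest library 2.55 times the lowest. In mm10 it runs from 142650768 to 142666816 on the minus strand of chromosome 7 and shares 7137 bases with the antisense gene Igf2os, which had only 69.8 to 155 counts. Whether the library kit kept strand is not stated in the labels used here, so reads of such overlaps cannot be assigned to a strand.

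Within a library, Igf2 exceeded Igf1 at both ages when counts were divided by the length of the longest transcript. The log2 ratio of Igf2 to Igf1 per kb was 4.85, 4.27 and 5.10 in the young libraries and 3.93, 4.81 and 3.88 in the old libraries. Old 2, the library with the most Igf2, fell within the young range and the other old libraries below it. The difference of the means was -0.53 (exact permutation test, two-sided, p = 0.2, where 0.1 is the smallest p that 3 against 3 allows). When a library was left out it lay between -0.83 (without old 2) and -0.35 (without young 3).

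Both ligands were set beside marker genes of cells that could carry them. The counts of markers stand beside 15.9% higher and 18.7% lower among all genes. The 16 macrophage markers were all detected in every library, 13 rose and none fell (median log2 fold change 1.35), and their summed level was 7233 to 10294 counts in young and 17625 to 29542 in old nerves. Their mean log2 level was 8.75, 8.22 and 8.41 in the young libraries and 10.1, 10.2 and 9.53 in the old libraries. Igf1 followed nearly this order, with young 2 lowest, young 3 and young 1 next, then old 3, and old 1 and old 2 at the top. The part of macrophages in the Igf1 result was not tested. Of 13 leptomeningeal and perineurial markers 1 rose and 2 fell, with sums of 420111 to 569131 in young and 569865 to 961066 in old nerves, of which Ptgds made up 93.4%. Their mean log2 level was highest in old 2 (12.4), the library with the most Igf2, and lowest in old 3 and young 2 (11.3 and 11.6), the libraries with the least. That of 13 fibroblast and connective tissue markers, of which 2 rose and 3 fell, was also highest in old 2 (10.9). It was lowest in old 3 (10.1), with old 1 (10.3) next. The part of the cells of either list in the Igf2 values was not tested. Endothelial markers gave similar sums at both ages (18278 to 19334 and 17333 to 20435), none rose and 2 of 12 fell. Of 11 pericyte and smooth muscle markers none rose and 3 fell, with sums of 17416 to 21434 in young and 14316 to 15753 in old nerves. Of 7 tested markers of choroid plexus like epithelium 2 rose and none fell, with sums of 9080.0 to 9684 and 12347 to 14731, and the defining markers Folr1 and Kcne2 were at 0 in at least 1 library.

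**Figure D2:**
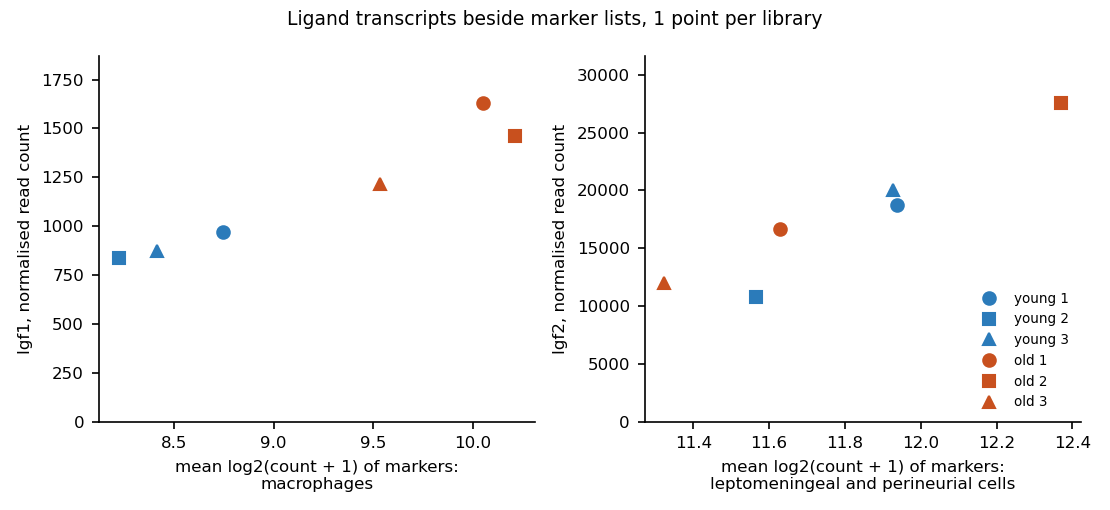
Left, Igf1 normalised read count (y axis) against the mean log2(count + 1) of 16 macrophage markers (x axis); right, Igf2 against 13 leptomeningeal and perineurial markers; each point is a library, blue young and orange old. The old libraries lie above and to the right of the young ones for Igf1, and ages are mixed for Igf2, with old 2 highest on both axes.

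Among the receptors only Igf2r passed the test. It had 3815, 4004 and 3754 counts in the young libraries and 3049.9, 3409 and 3073 in the old libraries, with no overlap. Its log2 fold change was -0.28 ± 0.07 (interval -0.44 to -0.12, limma adjusted p = 0.0206), a mean 0.824 times that of young nerves. The call was lost without young 1 (adjusted p = 0.0584), young 2 (0.0828), young 3 (0.0602) or old 1 (0.0545) and with upper-quartile scaling (0.0571). With length and GC trends removed its log2 fold change was 0.08 (adjusted p = 0.437), so neither the call nor the direction stood there. The longest Igf2r transcript has 8887 nt. The gene, on the minus strand of chromosome 17 from 12682406 to 12769706, shares 28396 bases with the antisense transcript Airn, which had 108 to 201 counts and did not pass (adjusted p = 0.186).

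Igf1r, the signalling receptor, did not pass in the main fit or in any of the 18 alternatives. Its counts were 4347, 5447 and 4791 in the young libraries and 4579, 3964 and 4065 in the old libraries. Old 1 lay inside the young range and the other old libraries below it. The log2 fold change was -0.21 ± 0.10 (interval -0.44 to 0.03, adjusted p = 0.149), and 0.20 with length and GC trends removed (adjusted p = 0.241). Its longest transcript, 11409 nt, is the longest of the family, and the gene lies on the plus strand of chromosome 7 from 67952257 to 68233667. The insulin receptor Insr, which can pair with IGF1R in hybrid receptors, had a log2 fold change of -0.02 ± 0.09 (adjusted p = 0.902).

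**Figure D3:**
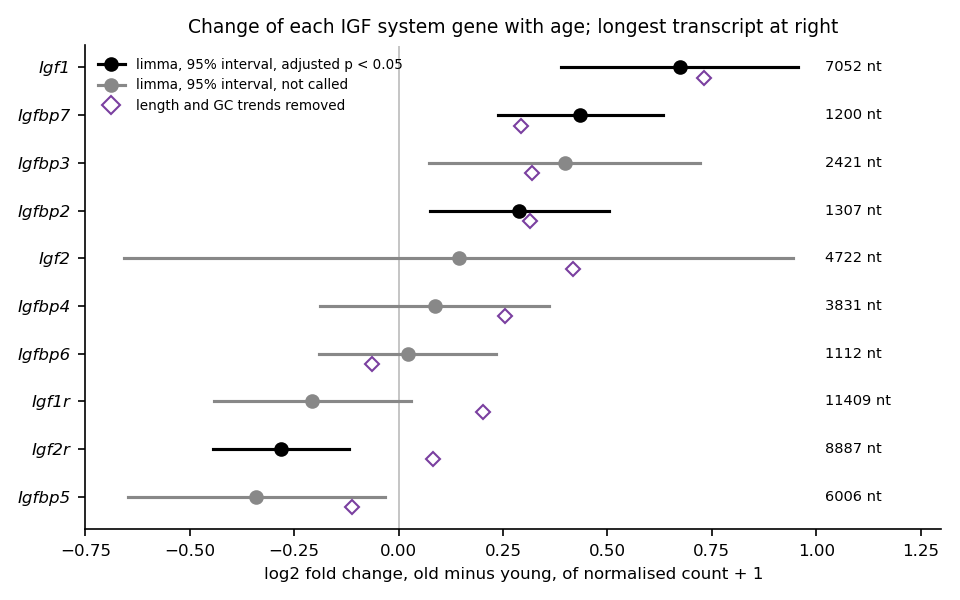
Log2 fold change, old minus young, of the 10 genes (x axis) from limma with its 95% interval, black where the adjusted p was under 0.05, with the length of the longest transcript at right; open diamonds are the values with length and GC trends removed. Igf1 at 0.67 is the furthest from 0, and the diamonds of Igf1r, Igf2r and Igfbp6 lie on the other side of 0 from their points.

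Of the binding proteins, Igfbp7 rose most firmly. IGFBP7 is a secreted protein of vessels and connective tissue that is also named angiomodulin. Its counts were 1628, 1692 and 1669 in the young libraries, the tightest group of any member (coefficient of variation 1.96%), and 2009, 2397 and 2363 in the old libraries. This gave a log2 fold change of 0.44 ± 0.08 (interval 0.24 to 0.63, limma adjusted p = 0.00992), or 1.36-fold. It passed with each library left out and with length and GC trends removed, where it was 0.29 (adjusted p = 0.0378), but not without both young 1 and old 2 (0.37, adjusted p = 0.0795), an alternative added after seeing the data. The gene, on chromosome 5 from 77349240 to 77408045 (minus strand), shares 89 bases with the end of Polr2b on the other strand.

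Igfbp2, a binding protein abundant in fetal tissue and in brain, rose 1.22-fold. The young libraries had 3678, 3460.1 and 3936 counts and the old ones 4531, 4961 and 4063. The groups were separate, but old 3 lay close to young 3. It had a log2 fold change of 0.29 ± 0.09 (interval 0.07 to 0.50, limma adjusted p = 0.0455). This call is near the threshold: it was lost without young 1 (adjusted p = 0.109), young 2 (0.149), young 3 (0.0722), old 1 (0.101) or old 2 (0.12) and with trends removed (0.0781), where the log2 fold change was 0.31.

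Igfbp5, which binds to matrix as well as to IGFs, lies next to Igfbp2 on chromosome 1, tail to tail with 5593 bases between them (Igfbp2 72824480 to 72852471, plus strand; Igfbp5 72858065 to 72874865, minus strand). Their log2 fold changes had opposite signs, but that of Igfbp5 did not pass the test. Igfbp5 had 74194, 80249.9 and 78446 counts in the young libraries and 53804, 69371 and 61605 in the old libraries. All old libraries were below all young ones, yet limma gave an adjusted p of 0.0823 for a log2 fold change of -0.34 ± 0.13 (interval -0.65 to -0.03). DESeq2 on the recovered reads called it lower (adjusted p = 0.0111), as did the authors' deposited table (FDR 0.0114), and the value was below 0 in all 18 alternatives. With length and GC trends removed it was -0.11, for a longest transcript of 6006 nt.

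Igfbp3, the main carrier of IGF-1 in blood, also had separate groups without passing limma's threshold. It had 1298, 1141 and 1665 counts in the young libraries and 1727, 1713 and 1906 in the old libraries. Young 3 stood nearest to the old libraries. The log2 fold change was 0.40 ± 0.14 (interval 0.07 to 0.72, adjusted p = 0.0606). It was called without young 3 (adjusted p = 0.0271), with upper-quartile scaling (0.0341), by DESeq2 (0.0376) and in the authors' deposited table (FDR 0.044). On chromosome 11 (7206091 to 7213923, minus strand) its neighbour Igfbp1, 3544 bases away, had 0 to 5.64 counts and was not tested.

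Igfbp4 and Igfbp6 did not pass the test. Igfbp4, which inhibits IGF action until PAPP-A cleaves it, ranged from 6403 to 7424 counts in young and from 6271 to 8421 in old nerves (log2 fold change 0.09 ± 0.12, interval -0.19 to 0.36). Igfbp6, which prefers IGF-2 over IGF-1, ranged from 6512 to 7089 in young and from 6293 to 7768 in old nerves (0.02 ± 0.09, interval -0.19 to 0.23). The groups of both genes overlapped, and neither passed in any of the 18 alternatives. With length and GC trends removed Igfbp4 was at 0.25 (adjusted p = 0.169) and Igfbp6 at -0.065 (0.602). Without old 3 Igfbp4 was at 0.20, and without old 2 at -0.017. Igfbp6 was at -0.058 without old 2 and at -0.016 without young 2. Igfbp4 lies on chromosome 11 from 99041260 to 99052643 and Igfbp6 on chromosome 15 from 102144186 to 102149512, both on the plus strand.

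Levels of different genes were compared per kb of the longest transcript. In young nerves the order was Igfbp5 (12925 ± 518 counts per kb), Igfbp6 (6171 ± 276), Igf2 (3504 ± 1060.0), Igfbp2 (2824 ± 182), Igfbp4 (1799.9 ± 134), Igfbp7 (1386 ± 27.2), Igfbp3 (565 ± 111), Igf2r (434 ± 14.6), Igf1r (426 ± 48.5) and Igf1 (127 ± 9.76), with SD and n = 3. Among neighbours in this order the ranges of Igf2 and Igfbp2 overlapped, as did those of Igf2r and Igf1r. In old nerves the order differed only in that Igf1r (368 ± 28.9) stood above Igf2r (358 ± 22.6), with overlapping ranges. There Igf2 (3964 ± 1692) overlapped both Igfbp6 (6282 ± 667) and Igfbp2 (3457 ± 344), and Igfbp4 (1921 ± 281) overlapped Igfbp7 (1880.0 ± 179). By the longest transcript Igf1 was last at both ages, at 204 ± 29.4 in old nerves. The order depends on the transcript length used: with the median length over a gene's transcripts, Igfbp4 ranked 2 at both ages, and Igf1 ranked 8 in young and 7 in old nerves (655 and 1049.8 counts per kb), above both receptors.

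The make-up of the 6 binding protein transcripts is given as a description, since 3 libraries against 3 cannot pass the threshold in an exact test (smallest p 0.1) and neither Igfbp5 nor Igfbp6 passed limma. Igfbp5 took 49.2%, 52.0% and 49.9% of their summed level per kb in the young libraries and 40.0%, 42.4% and 42.8% in the old libraries. The groups did not overlap, and the means differed by -8.61 percentage points, old minus young. Without dividing by length the difference was -6.29 points, on shares of 79.1% and 72.8%. With the median length over a gene's transcripts it was -7.47 points, on shares of 38.3% and 30.9%. The shares thus depend on the length used. Igfbp4 depends on it too: by the median length its mean level was 9293 counts per kb in young and 9917 in old nerves. The shares of the other binding proteins given here are by the longest transcript. Igfbp7 went from 5.40% ± 0.0893 to 7.67% ± 0.474, Igfbp2 from between 10.3% and 11.5% to between 13.0% and 15.5% and Igfbp6 from 24.0% ± 1.12 to 25.6% ± 0.312 (SD, n = 3), each with separate groups. The shares of Igfbp3 (2.20% and 3.02%) and Igfbp4 (7.02% and 7.84%) overlapped between ages. Shares of a sum move together, so these are not separate results. The summed level of the 6 overlapped too, at 25131 to 26198 in young and 22399 to 27234 in old nerves. Set against this sum, the 2 ligands gave a log2 ratio of -2.61, -3.41 and -2.58 in the young libraries and -2.58, -2.17 and -3.15 in the old libraries. The ages overlapped, and the difference of 0.24 turned to -0.03 without young 2 and to 0.0086 without old 2.

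**Figure D4:**
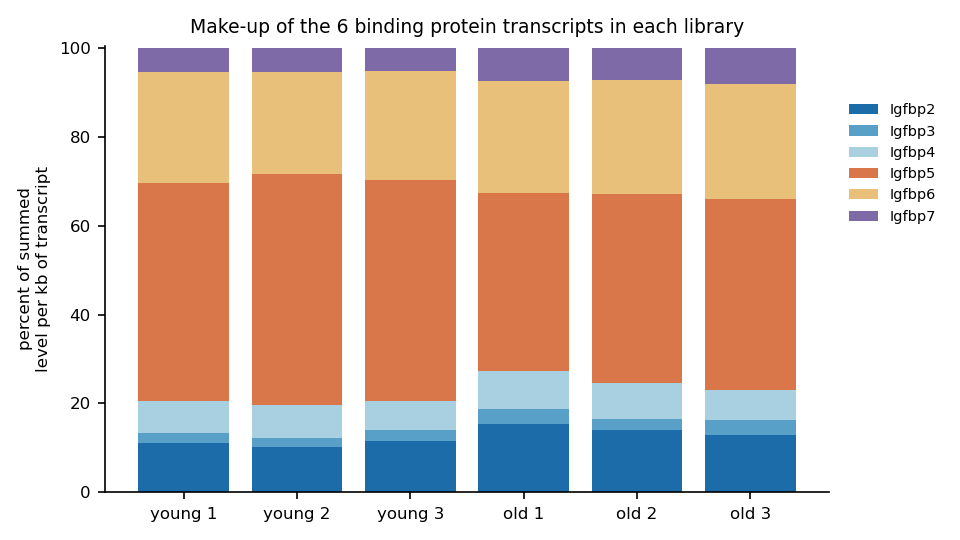
Share of each of 6 binding proteins (colours) in their summed level per kb of longest transcript (y axis, percent) in each library (x axis). The Igfbp5 block is 49.2% to 52.0% high in young and 40.0% to 42.8% in old libraries, and the Igfbp7 and Igfbp2 blocks are higher in the old ones.

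The other genes of the IGF and growth hormone system (proteases and their inhibitors, related receptors, the growth hormone receptor and the Socs2 and Stat5 genes inside the cell) numbered 12 tested, of which 1 rose and 3 fell (median log2 fold change -0.19). Among all genes 15.9% rose and 18.7% fell, so these counts are no result about the list. Socs2, an inhibitor of growth hormone receptor signalling that growth hormone itself induces, rose from 865 ± 143 to 1409 ± 216 (log2 fold change 0.71 ± 0.16, limma adjusted p = 0.0157), and lost the call with trends removed (0.51, adjusted p = 0.0713). Pappa, the protease that frees IGFs from IGFBP4, fell by 0.48 ± 0.15 (adjusted p = 0.0438). That call was lost without young 2 (adjusted p = 0.139), young 3 (0.138), old 1 (0.102) or old 2 (0.116) and with trends removed (0.508). The insulin receptor-related receptor Insrr fell by 1.33 ± 0.42 (adjusted p = 0.044) and, with a library left out, kept the call only without old 2 (0.0605 to 0.135 in the others). Igfals, the partner of IGFBP3 in the circulating complex, went from 52.3 ± 4.01 to 32.3 ± 1.68 counts (adjusted p = 0.0476), and no fit with a library left out called it (0.0808 to 0.153). The growth hormone receptor Ghr did not pass (0.01 ± 0.10, adjusted p = 0.967).

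Downstream of the receptor, 28 genes of the adaptors and the PI3K, AKT and FOXO branch were tested, and 1 rose and 11 fell (median log2 fold change -0.21, beside -0.0008 and 18.7% lower among all genes). Irs1, the substrate that couples IGF1R to PI3K, went from 2527 ± 175 to 1307 ± 102 counts (log2 fold change -0.95 ± 0.09, limma adjusted p = 0.00399) and passed in all 18 alternatives. Irs2 fell by 0.70 ± 0.15 (adjusted p = 0.0133), and Pdpk1, the kinase that activates AKT, fell by 0.45 ± 0.08 (adjusted p = 0.00784). Inppl1, a lipid phosphatase that opposes PI3K, fell by 0.45 ± 0.08 (adjusted p = 0.00841). Sgk1, an AKT-related kinase that glucocorticoids also induce, was the gene that rose, from 5236 ± 843 to 16940.4 ± 2878 (1.69 ± 0.16, adjusted p = 0.00399, in all 18 alternatives). With length and GC trends removed Irs1 was at -0.59 (adjusted p = 0.00954), and Irs2 (-0.30, adjusted p = 0.124), Pdpk1 (-0.25, 0.0501) and Inppl1 (-0.12, 0.38) lost their calls. The count of 11 that fell became 4 without young 2, 6 without young 3 and 3 with length and GC trends removed, where 3 rose. Irs2 also lost its call without young 2 (adjusted p = 0.0555). Marker lists were set beside these falls and those of the TOR branch. Among 15 markers of spiral ganglion neurons 6 fell and none rose, with sums of 617145 to 649788 counts in young and 354797 to 522243 in old nerves. Among 12 osteoblast and osteocyte markers 7 fell and none rose (median log2 fold change -1.12, beside -0.35 for the neuron markers). Among 10 tested chondrocyte markers 1 rose and 4 fell. Of 12 myelinating Schwann cell markers 1 rose and 4 fell, with sums of 464771 to 533251 and 456489 to 511607. The part of any of these cell types in the pathway counts was not tested.

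In the TOR branch 3 of 16 genes rose and 7 fell, beside 15.9% higher and 18.7% lower among all genes. Rptor, the scaffold of TOR complex 1, went from 3680 ± 97.4 to 2097 ± 202 (log2 fold change -0.82 ± 0.08, limma adjusted p = 0.00399, in all 18 alternatives). Mtor, the kinase, fell by 0.62 ± 0.09 (adjusted p = 0.00564), and Tsc2, which restrains it, fell by 0.58 ± 0.09 (adjusted p = 0.00679). Rps6, the ribosomal protein that S6 kinase phosphorylates, rose by 0.66 ± 0.08 (adjusted p = 0.00464). With trends removed 2 fell, Rptor (-0.40, adjusted p = 0.0115) and Tsc2 (-0.25, adjusted p = 0.0473), with smaller values. Mtor (-0.20, adjusted p = 0.0705) and Rps6 (0.21, adjusted p = 0.0835) lost their calls there. The 1 gene that rose there was not among the 3 that rose in the main fit. Without young 2 the count that fell was 4, and with any one of the young libraries left out the count that rose was 1.

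In the RAS-ERK branch 1 of 16 genes rose and 2 fell. Among all genes 15.9% rose and 18.7% fell, so these counts are no result about the branch. Dusp6, a phosphatase that ERK signalling induces and that switches ERK off, rose from 683 ± 21.4 to 1171 ± 29.6 (log2 fold change 0.78 ± 0.07, limma adjusted p = 0.00399). Sos1, which loads RAS with GTP, fell by 0.90 ± 0.13 (adjusted p = 0.00563), and both passed in all 18 alternatives. Spry4, a feedback inhibitor, fell by 1.14 ± 0.26 (adjusted p = 0.0162) and lost the call without old 1 (0.0512). The count that fell was 5 without old 3. The other genes of the branch, the RAS, RAF, MEK and ERK genes among them, did not pass.

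Of 13 genes whose proteins carry an IGFBP-like domain, 1 rose and 3 fell. Beside the 15.9% higher and 18.7% lower among all genes, these counts are no result about the list. Ctgf, a matricellular protein, rose by 0.97 ± 0.26 (limma adjusted p = 0.0282), and its relative Wisp1 fell by 1.35 ± 0.35 (adjusted p = 0.024). The protease Htra3 (-1.23 ± 0.39, adjusted p = 0.0478) and Nov (-0.80 ± 0.26, adjusted p = 0.0499) stood at the threshold. Each lost the call with 1 library out: Ctgf in all but the fit without old 3 (0.0639 to 0.0873 in the others), Wisp1 without young 1 (0.063), young 2 (0.0569) or old 1 (0.0637), and Htra3 (0.0765 to 0.139) and Nov (0.0782 to 0.143) in all but the fit without old 2.

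Igf2 and Igf2r are imprinted, and 14 other imprinted genes of growth were tested: none rose and 3 fell. Among all genes 15.9% rose and 18.7% fell, so the count that fell is no result about the list. Mest, expressed from the paternal allele like Igf2, went from 2338 ± 58.1 to 1415 ± 266 (log2 fold change -0.74 ± 0.13, limma adjusted p = 0.00844, passing with each library left out). Ndn fell by 0.50 ± 0.14 (adjusted p = 0.0285), a call kept only without old 3 among the fits with a library left out (0.0596 to 0.0849 in the others). The noncoding Kcnq1ot1 fell by 0.32 ± 0.08 (adjusted p = 0.0195), but its value was 0.27 with trends removed, and the call was lost without any one young library or old 2 (0.0561 to 0.0681). Without old 3, 1 of the list rose and 6 fell. H19, which shares an imprinting control region with Igf2, had 651, 490 and 553 counts in the young libraries and 279, 633 and 284 in the old libraries (-0.60 ± 0.31, adjusted p = 0.175), highest among the old in old 2, like Igf2. Both tested RNA-binding proteins of Igf2 mRNA fell, Igf2bp2 by 0.74 ± 0.18 (adjusted p = 0.0182, from 552 ± 27.0 to 336 ± 75.6) and Igf2bp3 by 0.59 ± 0.16 (adjusted p = 0.0259). Neither call stood without young 2 (0.0622 and 0.101) or young 3 (0.0648 and 0.0865), and that of Igf2bp3 was also lost without old 2 (0.069).

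**Figure D5:**
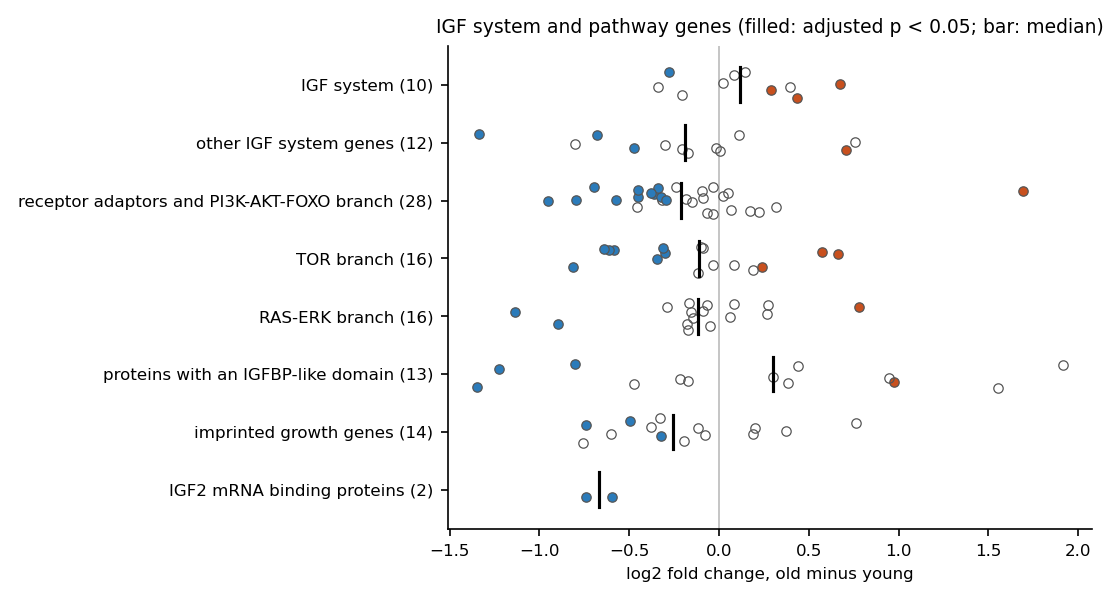
Log2 fold change, old minus young (x axis), of the tested genes of the IGF system and of 7 related lists (rows, number tested in brackets); filled points passed an adjusted p of 0.05, orange higher and blue lower in old nerves, and bars are medians. Filled blue points outnumber filled orange ones in the PI3K-AKT-FOXO row (11 and 1) and the TOR row (7 and 3).

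The genes whose pattern over the 6 libraries was most like that of a member were taken among tested genes at or above the median level, by Pearson's r of log2(count + 1), as a description without a test. For Igf1 these were Cetn3 (r = 0.997), Tmsb4x (0.996) and Mrps33 (0.996), of which Cetn3 (log2 fold change 0.49 ± 0.10) and Mrps33 (0.29 ± 0.07) had values below 0 with trends removed (-0.10 and -0.25). There Mrps33 passed as lower (limma adjusted p = 0.0452), and Tmsb4x (0.78 ± 0.13 in the main fit) lost its call (0.28, adjusted p = 0.0795). For Igf2r they were Pou3f2 (r = 0.997), Arhgef25 (0.995) and Smpd3 (0.994), and Smpd3, a neutral sphingomyelinase, had a log2 fold change of -1.37 ± 0.22. For Igfbp7 they were Arrdc3 (r = 0.992, log2 fold change 0.80 ± 0.10), Vmp1 (0.987, 0.24 ± 0.06) and Tmem199 (0.987, 0.13 ± 0.06, not called). All points share the same 6 libraries and the same contrast of ages, which by itself gives high values of r.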

How the data were processed

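The data are RNA-seq libraries of microdissected auditory nerve from 3 young and 3 old CBA/CaJ mice. Per the labels' protocols, a miRNeasy kit was used to purify total RNA, samples that a Bioanalyzer showed to be degraded or contaminated were left out, and a TruSeq RNA kit was used for the libraries. The submitters' processing notes name mm10 as the build, and DESeq2, Partek and TopHat2 as tools, without versions or settings. The deposited sample values are a signal, gene read counts that the authors divided by 1 size factor per library. Dividing by the value of 1 read (0.940 to 1.10) gave whole reads, within 0.1, for 99.93% to 99.97% of values above 0. The deposited p-values, FDR (which holds marks in place of some values) and signed fold score are the authors' own, for old against young. The columns headed as controls were taken as young, since the table's comparison is old over young and its folds match.

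The main test was limma (3.58.1, R 4.3.3) on log2(value + 1), with variances moderated along a trend, two-sided, and p-values adjusted (Benjamini-Hochberg) over the 15882 genes that edgeR's filterByExpr kept (minimum count 10, minimum total 15) and a threshold of 0.05. The alternatives were edgeR (4.0.16) and DESeq2 (1.42.0) on the recovered reads, TMM and upper-quartile scaling, no filter, a mean of at least 50, pseudocounts of 0.5 and 10, the replicate number as a block, length and GC trends removed (mgcv 1.9.3, longest protein-coding transcript in GENCODE M21, matched by symbol), and each library left out. The authors' FDR and a fit without young 1 and old 2 were added after seeing the data. Libraries held 34587979 to 40841478 reads, and libraries of a group differed beyond counting noise (19 to 66.4 for chi-square over its degrees of freedom). With 3 mice a group, an exact permutation test of one value cannot go below 0.1. The script was tested on simulated data.

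The members and lists were chosen with earlier results of these data known. The named genes are the 10 members, up to 4 called genes with the smallest p per pathway list, and the 3 genes most correlated with Igf1, Igf2r and Igfbp7. Insr, Ghr, Irs2, H19, Airn and Igfbp1 were named besides, as genes tied to a member. Igf2os and Polr2b were named as overlapping genes, and Ptgds, Folr1 and Kcne2 as markers. Pik3r2, Tsc1 and Rheb were named for a changed sign, and Fmod, Aldh1a2 and Dynll1 as the genes most correlated with Igf2.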

Additional observations from a re-analysis of the deposited data

How the results depend on the processing

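The main fit called 5493 genes. The count was 3499 with length and GC trends removed, 1776 without both young 1 and old 2, and 2589 to 6117 with 1 library left out. With the replicate number as a block it was 2711. Same-numbered libraries did not deviate together (correlations -0.29, -0.41 and -0.05). With 3 libraries a group these values cannot settle whether same-numbered libraries were handled together. With upper-quartile scaling 59.5% of the calls were higher in old nerves, against 46.0%, with the median of all genes moved to 0.08. Of the members, 3 were called higher in the main fit, 2 to 3 with a library left out, and 1 without both young 1 and old 2. Igfbp3 joined the 3 by DESeq2 (adjusted p = 0.0376), with upper-quartile scaling (0.0341) and in the authors' deposited table (FDR 0.044). The count called lower, 1, became 2 by DESeq2 and in the authors' deposited table, 0 with upper-quartile scaling, with the block, with trends removed and without both young 1 and old 2, and 0 to 1 with a library left out. In the fit with the block Igf1 and Igfbp7 were called and Igfbp2 (adjusted p = 0.129) and Igf2r (0.0613) were not. With trends removed the sign changed for the uncalled members Igf1r (0.20) and Igfbp6 (-0.065), and, among called genes, for Igf2r (0.0811), Pik3r2 (0.00706), Tsc1 (0.0281), Rheb (-0.0478), Kcnq1ot1 (0.27), Cetn3 (-0.10) and Mrps33 (-0.25). The cause was not tested. Without both young 1 and old 2, 2 genes of the PI3K-AKT-FOXO list and 3 of the TOR list were called lower, in place of 11 and 7, and with the block 6 of the former were. The block also removed the calls of Socs2 (0.0565), Insrr (0.0969), Pappa (0.0672), Igfals (0.139), Spry4 (0.0529), Ctgf (0.0529), Nov (0.107), Htra3 (0.0971), Ndn (0.0815), Kcnq1ot1 (0.0745), Igf2bp3 (0.0948), Mrps33 (0.0825) and Vmp1 (0.0932). With 3 mice a group the intervals of Igf2, Igf1r, Igfbp4 and Igfbp6 leave changes of either sign within reach.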

Other observations

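Igf2 was not called, and its closest patterns, chosen after its values were seen, are given as a description. Over the 6 libraries they were those of Fmod (r = 0.973), a keratan sulfate proteoglycan of connective tissue, Aldh1a2 (0.971), a retinoic acid synthase known from meninges, and Dynll1 (0.970), a dynein light chain. Aldh1a2 is itself among the leptomeningeal and perineurial markers set beside Igf2 above, so its pattern is not a separate observation. Fmod had, in the order of replicates, 8264, 4452 and 8441 counts in the young libraries and 6917, 12147 and 3748 in the old libraries. Aldh1a2 had 3508, 2338 and 4659 counts in the young libraries and 3746, 7429.9 and 2562 in the old libraries. As with Igf2, old 2 was highest and young 2 and old 3 were lowest. Over all tested genes, the deviations of young 1 and old 2 from their group means correlated at 0.396, the highest of the 9 pairs of a young and an old library.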
